A study of Homo sapiens with 36 samples.

Results

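Expression of 10 amino acid transporter genes was followed in an RNA-seq series of ovarian cancer cells grown with and without serine and glycine and with and without carboplatin. The 10 genes, out of 57820 in the count table, were taken by name as carriers of neutral amino acids and cystine at the plasma membrane, with the heavy chain SLC3A2 and the cationic amino acid carrier SLC7A1 included: SLC1A4, SLC1A5, SLC38A1, SLC38A2, SLC38A4, SLC7A5, SLC7A11, SLC3A2, SLC6A9 and SLC7A1. The membership rule used no measured value, but the genes were chosen with earlier results of these data known. The study had already reported SLC1A4 and SLC1A5 as higher in the resistant line from its RNA-seq. All 10 genes passed the filter on low counts in each of the 20 tests. Total RNA was sequenced from 36 libraries, 3 in each of 12 conditions. The lines were A2780, a human ovarian carcinoma cell line (wt), its cisplatin resistant counterpart A2780 cis (cis), which was derived by long exposure of the parental cells to cisplatin, and cis SSP, cis cells that grew out under serine and glycine deprivation and had regained serine synthesis. Each line was sampled in complete medium, in complete medium with carboplatin (carbo), in medium lacking serine and glycine (-SG) and in that medium with carboplatin (-SG carbo). The resistant line and the outgrown cells are each a single cell population, so a line difference is a difference between those populations. Homemade RPMI with dialysed serum was used in deprivation experiments, and the sources do not state separately which serum the complete medium cultures for RNA had. Carboplatin was given at 6 µM, with the unit taken from the methods of the metabolite assays on these lines, because the label has lost its unit character.

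Serine, alanine, cysteine and threonine enter cells through exchangers of the SLC1 family, and glutamine and other small neutral amino acids through sodium-coupled carriers of the SLC38 family. SLC3A2 encodes a heavy chain that carries no amino acid alone but takes light chains to the plasma membrane, among them SLC7A5, which exchanges large neutral amino acids, and SLC7A11, which imports cystine in exchange for glutamate and so supplies cysteine for glutathione. Many of these genes are known targets of ATF4, the transcription factor induced when amino acids run short, and SLC7A11 is also a known target of NRF2, the regulator of the oxidative stress response.

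The libraries held 13074937 to 20441582 reads counted on genes, with a median of 17663485.5. Levels are given as CPM, reads counted on the gene relative to the library's total, scaled by the trimmed mean of M values over the 36 libraries. Expression of the 10 ovarian and epithelial markers was low. KRT18 ranged from 0.344 to 44.1 CPM, PAX8 did not exceed 0.612 CPM, and KRT7 and MUC16 were at or near 0. Their summed level was 2.32 to 15.6 CPM in wt libraries, 16.7 to 48.7 in cis and 9.69 to 19.9 in cis SSP. Among 11 measured markers of other cell types, CD3E was at 0 and PTPRC did not exceed 0.066 CPM, whereas COL1A1 reached 991 CPM in wt libraries. The summed level of these 11 was 97.1 to 992 CPM in wt, 2.36 to 5.19 in cis and 30.5 to 45.5 in cis SSP. The part of these markers in the transporter differences between lines was not tested. Libraries within a condition are technical replicates according to the study's legends, and p-values therefore measure technical spread only. Separation of the libraries of 2 conditions was not counted over all genes, so it does not set a transporter apart from other genes. Because RNA was taken from whole cultures, fewer cells with a transcript and less of it per cell cannot be told apart.

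Libraries of 3 conditions disagreed among themselves with a trend by exonic length. In cis SSP replicate 1 the log2 ratio of each gene to the other 2 libraries of the condition correlated with exonic length at rho = -0.58 over 10643 genes, with a median absolute log2 ratio of 0.422. In cis SSP -SG replicate 2 the same values were -0.58 and 0.427. In wt -SG carbo replicate 2 they were -0.56 and 0.152, with rho of 0.49 and 0.46 in its other 2 libraries. In the 27 libraries of the other 9 conditions rho lay between -0.27 and 0.30. The log2 ratio of SLC7A1 was -1.18 in cis SSP replicate 1 and -1.19 in cis SSP -SG replicate 2. For SLC38A1 the values were -0.99 and -1.01. SLC38A4, one of the shorter transcripts here, was also low (-0.99 and -0.96). SLC1A4 was at -0.34 and -0.32, and SLC3A2 went the other way, with 0.55 and 0.71. In wt -SG carbo replicate 2 the transporters lay between -0.44 (SLC38A1) and 0.20 (SLC3A2). All libraries were retained, and comparisons that use cis SSP replicate 1 or cis SSP -SG replicate 2 are given with and without them.

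**Figure D1:**
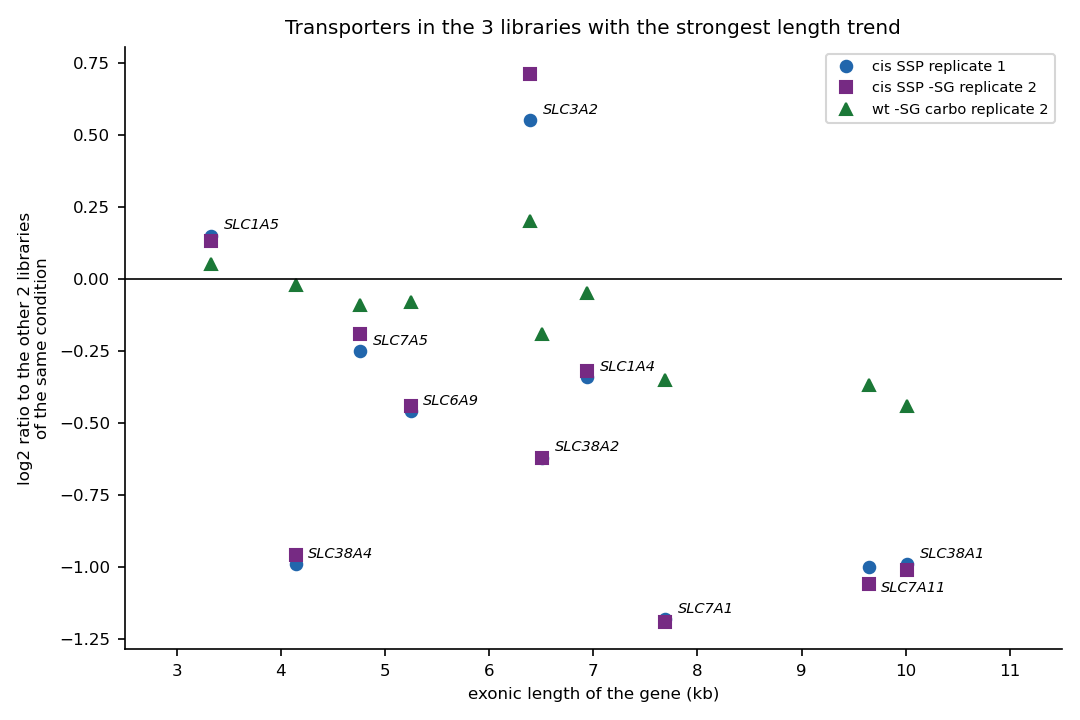
Log2 ratio of each transporter gene in 1 library to the other 2 libraries of its condition (vertical axis) against exonic length in kb (horizontal axis), for the 3 libraries with the strongest length trend. In cis SSP replicate 1 and cis SSP -SG replicate 2 SLC7A1, SLC7A11, SLC38A1 and SLC38A4 lie near -1, while SLC3A2 lies at 0.55 and 0.71.

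Short stretches of promoter are shown because several of the transporters are known ATF4 or NRF2 targets, and so that their responses to deprivation and carboplatin can be set beside the letters of those factors' core elements. Sequences are from RefSeq (GRCh38.p14), in windows from 250 bases before to 50 after a start site, and 15 such windows matched 9 of the 10 genes. SLC7A11 had no window. The core of the C/EBP-ATF response element was searched as TGATGNAA and that of the antioxidant response element as TGACNNNGC, each on both strands, and no match of one overlapped a match of the other. The first was found in 5 transporters, against 3.62% of all 35116 windows and 4.46% of 27305 genes. Capitals mark the match in the following lines, which read 5′ to 3′ on the gene's strand. A match on the other strand therefore appears as its reverse complement.
SLC1A4, chr2:64989381-64989410, plus strand: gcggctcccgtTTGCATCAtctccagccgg
SLC3A2, chr11:62881725-62881748, plus strand: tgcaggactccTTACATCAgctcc
SLC38A1, chr12:46266502-46266531, minus strand: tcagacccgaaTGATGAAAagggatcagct
SLC7A1, chr13:29595663-29595692, minus strand: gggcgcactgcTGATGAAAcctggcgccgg
SLC1A5, chr19:46784893-46784922, minus strand: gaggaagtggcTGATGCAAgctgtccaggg
Counted with the start site as +1, these matches begin at -7 in SLC1A4, +38 in SLC3A2, -4 in SLC38A1, +8 in SLC7A1 and -97 in SLC1A5.

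The antioxidant core was found in 4 transporters, against 13.3% of all windows and 16.1% of genes.
SLC3A2, chr11:62881652-62881681, plus strand: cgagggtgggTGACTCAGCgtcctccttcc
SLC7A1, chr13:29595754-29595783, minus strand: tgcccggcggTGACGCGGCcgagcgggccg
SLC7A5, chr16:87869490-87869519, minus strand: gcggggttccTGACGCAGCtgcgggcggcg
SLC1A5, chr19:46787385-46787414, minus strand: cctggatcttGCGAGGTCAgctcccgctcc
They begin at -37, -85, -2 and -111, the last in a window of SLC1A5 other than the one above. A match is a description of these letters and not a measured binding site.

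The files count reads over exons of GRCh37, where the genes lie on 8 chromosomes. The 3 SLC38 genes lie on the minus strand of chromosome 12, SLC38A1 (ENSG00000111371) at chr12:46576846-46663800, SLC38A2 (ENSG00000134294) at chr12:46751971-46766556 and SLC38A4 (ENSG00000139209) at chr12:47158544-47226191. SLC1A4 (ENSG00000115902) lies at chr2:65215611-65250999 and SLC3A2 (ENSG00000168003) at chr11:62623476-62656352, both on the plus strand. On the minus strand lie SLC1A5 (ENSG00000105281, chr19:47278140-47291851), SLC7A5 (ENSG00000103257, chr16:87863629-87903113), SLC7A11 (ENSG00000151012, chr4:139085251-139163503), SLC6A9 (ENSG00000196517, chr1:44457172-44497139) and SLC7A1 (ENSG00000139514, chr13:30083551-30169825).

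Per kilobase of exon, the transporters differed widely in level. Exonic lengths here and above were taken from GENCODE 44 mapped to GRCh37. Reads were counted over GENCODE 19 exons, so levels per kb are approximate. Over the 36 libraries, the mean was 134 CPM per kb for SLC7A5, 125 for SLC38A2 and 113 for SLC1A5. SLC38A1 followed at 74.7, SLC3A2 at 39.8 and SLC7A1 at 34.5 CPM per kb. The glycine carrier SLC6A9 stood at 13.3, SLC1A4 at 11.8, SLC7A11 at 6.92 and SLC38A4 at 2.2 CPM per kb. The cystine carrier light chain was thus among the less abundant of these transcripts, and its heavy chain partner SLC3A2 and the other light chain SLC7A5 were more abundant per length.

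The least abundant genes varied most across conditions. The highest condition mean was 16.4-fold the lowest for SLC7A11, from 11 CPM in wt -SG carbo to 180 CPM in cis -SG carbo. The span was 7.08-fold for SLC38A4, 6.85-fold for SLC1A4 and 4.9-fold for SLC6A9. It was 3.53-fold for SLC7A1 and 3.21-fold for SLC1A5, and 2.32-fold or less for SLC3A2, SLC38A1, SLC7A5 and SLC38A2, the last at 1.61-fold. Without cis SSP replicate 1 and cis SSP -SG replicate 2 the spans were 2.87-fold for SLC7A1 and 3.11-fold for SLC1A5, in the opposite order, 2.67-fold for SLC3A2 and 7.76-fold for SLC38A4. In the order of the 12 condition means, neighbours often could not be separated. Of 11 neighbouring pairs, between 5 (SLC1A4) and 8 (SLC38A4 and SLC7A5) had libraries that overlapped. For SLC1A4 the order ran from cis -SG (172 CPM ± 3.9, SD, n = 3) down to wt (25.1 ± 1.36), and all 4 wt conditions lay below all 8 conditions of cis and cis SSP by their means, with wt -SG (49.1 ± 3.77) next to cis SSP (54.7 ± 7.35). Those neighbours overlapped through cis SSP replicate 1 alone (46.2 CPM), since the other 2 libraries, at 58.3 and 59.5 CPM, lay above the 45.6 to 53.1 CPM of wt -SG.

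**Figure D2:**
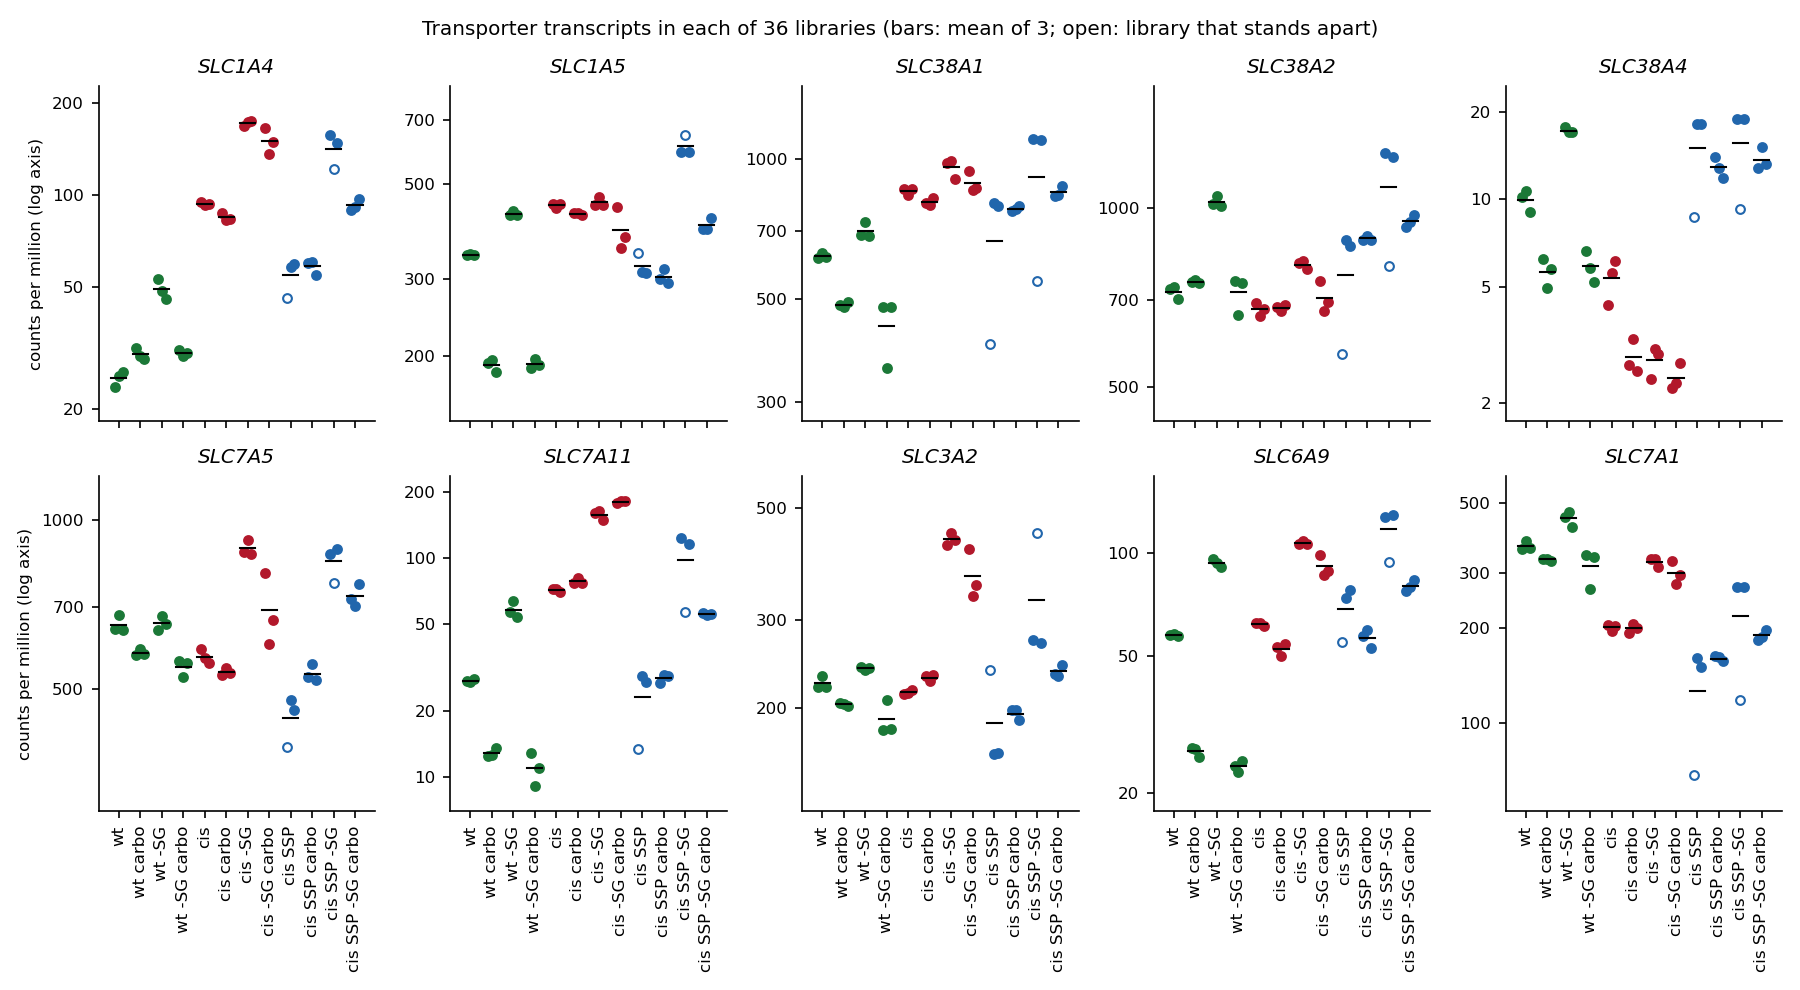
CPM (log axis) of each transporter in the 36 libraries, by condition, with points for libraries and bars for the mean of 3. Open points are the libraries that stand apart, and SLC7A11 spans 11 to 180 CPM between its lowest and highest condition means.

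The first comparison addressed the difference between the cisplatin resistant and the parental line in complete medium. SLC1A4, which exchanges serine, alanine and other small neutral amino acids, was measured at 23.6, 25.5 and 26.3 CPM in wt and at 94.9, 92.8 and 93.4 CPM in cis. Each cis library was above each wt library, and the log2 fold change was 1.86 ± 0.0455 (SE, adjusted p = 1.17e-34, edgeR). SLC7A11 was measured at 27.5, 27.1 and 27.9 CPM in wt and at 72.1, 71.9 and 69.4 CPM in cis, again with no overlap. Its log2 fold change was 1.34 ± 0.0466 (edgeR, adjusted p = 1.60e-28). The glutamine exchanger SLC1A5 rose by less (0.35 ± 0.023), as did the glutamine carrier SLC38A1 (0.43 ± 0.0231).

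The other transporters were lower in cis or close to equal. SLC7A1, which carries arginine and lysine, was measured at 357, 379 and 360 CPM in wt and at 205, 196 and 204 CPM in cis, so that the cis libraries were all lower (log2 fold change -0.89 ± 0.026). SLC38A4, a carrier of neutral and cationic amino acids, was measured at 10.2, 10.7 and 9.02 CPM in wt and at 4.35, 5.57 and 6.15 CPM in cis (-0.91 ± 0.114). SLC7A5 (-0.22 ± 0.0257), the alanine and glutamine carrier SLC38A2 (-0.13 ± 0.0242) and SLC3A2 (-0.09 ± 0.0263) fell by small amounts. SLC6A9 did not pass the test at 0.07 ± 0.0405 (edgeR, adjusted p = 0.0976). Its libraries still did not overlap between the lines, as for each of the 10 transporters.

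Across the family, 4 genes were called higher and 5 lower in cis at an adjusted p under 0.05, where 39.4% of all 14431 genes tested were called higher and 39.1% lower. The median log2 fold change was -0.01 over the 10 transporters and -0.00 over all genes. A call was therefore common between these lines. SLC1A4 and SLC7A11 were the only 2 of the 10 past an absolute log2 fold change of 1. Over all genes, 3549 of 14431 were called and past that size. SLC38A4 (-0.91) and SLC7A1 (-0.89) lay just short of it.

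Without serine and glycine, cis -SG was compared with wt -SG. All 10 genes were called with edgeR, 7 higher and 3 lower, against 40.8% and 40.3% of all genes, and the median was 0.30 (0.00 over all genes). SLC1A4 (1.79 ± 0.0449) and SLC7A11 (1.42 ± 0.0549) were again the largest increases. SLC38A4 was measured at 17.7, 17 and 17 CPM in wt -SG and at 2.42, 3.07 and 2.94 CPM in cis -SG (-2.63 ± 0.105), with no overlap. Both subunits of the large neutral amino acid exchanger, slightly lower in cis in complete medium, were higher in deprived cis than in deprived wt, SLC3A2 by 0.84 ± 0.0268 and SLC7A5 by 0.43 ± 0.0264.

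The comparison of cis SSP with cis addressed cells that had regained serine synthesis. SLC7A11 was measured at 13.4, 28.8 and 27 CPM in cis SSP against 72.1, 71.9 and 69.4 CPM in cis. SLC1A4 was at 46.2, 58.3 and 59.5 CPM against 94.9, 92.8 and 93.4 CPM. All cis SSP libraries lay below all cis libraries for both genes, although replicate 1 of cis SSP was lowest in each. SLC7A11 fell by 1.59 ± 0.286 on the log2 scale (edgeR, adjusted p = 0.00871) and SLC1A4 fell by 0.75 ± 0.13 (edgeR, adjusted p = 0.00752). Without replicate 1 the log2 fold changes were -1.31 ± 0.0554 and -0.63 ± 0.0441, and both remained called.

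SLC38A4 stood apart from both, at 8.7, 18.2 and 18.2 CPM in cis SSP against 4.35, 5.57 and 6.15 CPM in cis, with no overlap. The log2 fold change was 1.52 ± 0.319 (edgeR, adjusted p = 0.0153). That call was lost without any 1 of the cis libraries and held without replicate 1 of cis SSP (1.79 ± 0.109). SLC1A5 fell by 0.44 ± 0.0958 (edgeR, adjusted p = 0.0161), a call that was kept in 1 of the 6 fits without a library, the one without cis SSP replicate 1.

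In all, 1 of the 10 genes was called higher and 3 lower, against 15.8% and 13.3% of all genes, with a median of -0.33 (0.01 over all genes). Without replicate 1 of cis SSP, 3 were called higher and 6 lower, against 32.9% and 32.5% of all genes, with a median of -0.29. In that fit SLC38A2 (0.41 ± 0.0296) and SLC6A9 (0.33 ± 0.0457) were higher and SLC3A2 (-0.36 ± 0.0328), SLC7A1 (-0.33 ± 0.0358) and SLC7A5 (-0.24 ± 0.0318) lower in cis SSP. SLC38A1 was not called in either fit.

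In deprived medium the SLC1A5 difference between cis SSP and cis had the other sign. SLC1A5 was measured at 592, 647 and 593 CPM in cis SSP -SG and at 446, 466 and 447 CPM in cis -SG, with no overlap (log2 fold change 0.42 ± 0.0941; edgeR, adjusted p = 0.0124). This call was lost without any 1 of the cis -SG libraries and held without cis SSP -SG replicate 2 (0.38 ± 0.0252). SLC38A4 was also higher in cis SSP -SG, by 2.48 ± 0.315. These were the 2 genes called, both higher, against 21.6% higher and 23.2% lower over all genes. Without replicate 2 of cis SSP -SG, 5 were called higher and 4 lower, against 37% and 38.5%, and SLC3A2 (-0.68 ± 0.0278) and SLC7A11 (-0.41 ± 0.0382) were the largest decreases.

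**Figure D3:**
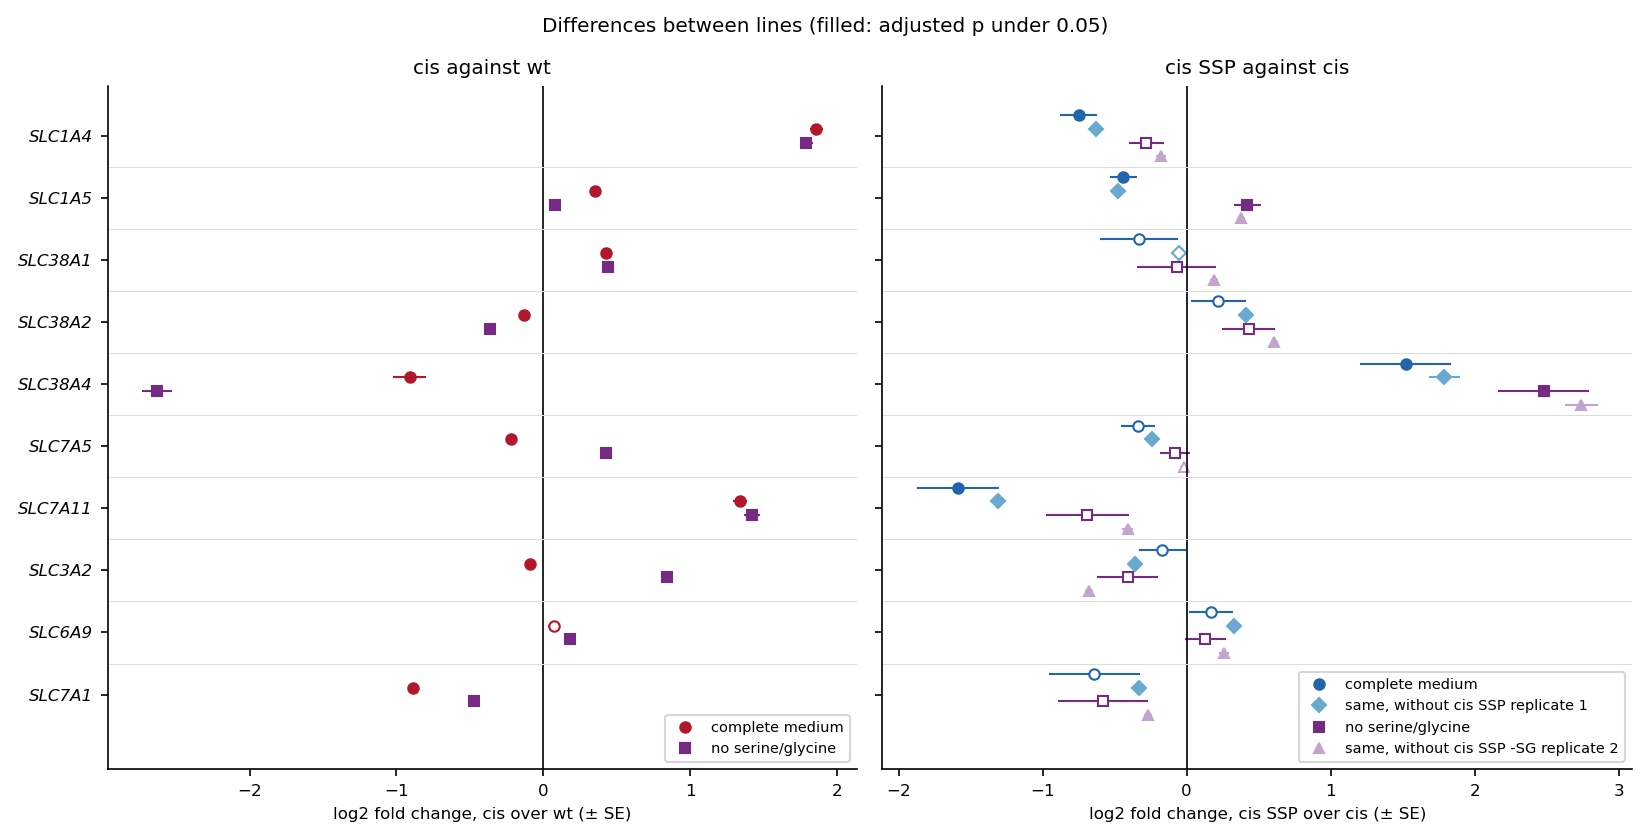
Log2 fold changes (± SE, n = 3 per condition unless a library is left out) of each transporter for cis over wt (left) and cis SSP over cis (right), in complete and in deprived medium, with filled symbols at an adjusted p under 0.05. SLC1A4 and SLC7A11 lie right of 0 in cis over wt and left of 0 in cis SSP over cis, and SLC38A4 lies on the opposite sides.

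Serine and glycine deprivation was examined in each line against its complete medium. In wt cells, SLC7A11 was measured at 56.7, 63.2 and 53.7 CPM without serine and glycine and at 27.5, 27.1 and 27.9 CPM with them (log2 fold change 1.09 ± 0.0567). SLC1A4 was at 53.1, 48.6 and 45.6 CPM against 23.6, 25.5 and 26.3 CPM (0.98 ± 0.0599). SLC6A9, which imports glycine, was at 95.7, 93.4 and 90.9 CPM against 57.8, 58 and 57.2 CPM (0.71 ± 0.037). Every deprived library lay above every control library for these 3 genes, as for 9 of the 10 transporters in all.

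Smaller increases in wt were those of SLC38A4 (0.81 ± 0.0797, at a low level), SLC38A2 (0.52 ± 0.0221), SLC1A5 (0.33 ± 0.0224), SLC7A1 (0.30 ± 0.037), SLC38A1 (0.19 ± 0.0242) and SLC3A2 (0.11 ± 0.0272). SLC7A5 was the exception, at 637, 676 and 654 CPM against 640, 677 and 637 CPM, with overlapping libraries (0.02 ± 0.0252; edgeR, adjusted p = 0.487). Thus 9 of the 10 transporters rose and none fell in wt, where 24.1% of all genes were called higher and 25.1% lower. The median was 0.42, against 0.01 over all genes.

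In cis cells the same number of genes was called, but not the same genes. SLC7A11 rose from 72.1, 71.9 and 69.4 CPM to 160, 163 and 148 CPM (1.17 ± 0.0372), and SLC1A4 rose from 94.9, 92.8 and 93.4 CPM to 168, 173 and 175 CPM (0.91 ± 0.0336). The heavy chain SLC3A2 rose from 213, 214 and 217 CPM to 423, 447 and 433 CPM (1.04 ± 0.0285). No library of the deprived condition overlapped the controls for these genes.

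SLC6A9 (0.81 ± 0.038), SLC7A1 (0.72 ± 0.0298) and SLC7A5 (0.66 ± 0.0281) also rose in cis, with smaller increases for SLC38A2 (0.28 ± 0.0272) and SLC38A1 (0.20 ± 0.0286). SLC1A5 was not called, at 446, 466 and 447 CPM against 449, 438 and 449 CPM (0.05 ± 0.0272; edgeR, adjusted p = 0.0856). SLC38A4 fell, from 4.35, 5.57 and 6.15 CPM to 2.42, 3.07 and 2.94 CPM (-0.92 ± 0.152). In all, 8 genes were called higher and 1 lower, against 37.6% and 37.4% of all genes, with a median of 0.69 (0.01 over all genes).

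The difference between the deprivation responses of cis and wt was tested directly in 1 fit of the 4 conditions. It was called for 7 of the 10 genes, against 54% of all genes in either direction. SLC3A2 (0.95 ± 0.0375) and SLC7A5 (0.66 ± 0.0381), the 2 chains of 1 exchanger, rose more in cis than in wt, as did SLC7A1 (0.43 ± 0.0456). The response was lower in cis for SLC38A4 (-1.71 ± 0.169), SLC1A5 (-0.26 ± 0.0341) and SLC38A2 (-0.22 ± 0.0345). SLC6A9 was called at 0.12 ± 0.0505 (edgeR, adjusted p = 0.0486), and that call was lost without any 1 of the 12 libraries. No difference was called for SLC1A4 (-0.06 ± 0.0642), SLC7A11 (0.10 ± 0.0687) or SLC38A1 (0.02 ± 0.0385).

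In cis SSP cells the calls depended on the libraries that stand apart and on the fit. SLC1A5 was measured at 345, 312 and 311 CPM in complete medium and at 592, 647 and 593 CPM without serine and glycine. SLC7A11 was at 13.4, 28.8 and 27 CPM and at 123, 56.5 and 115 CPM. SLC1A4 was at 46.2, 58.3 and 59.5 CPM and at 157, 122 and 148 CPM. The groups did not overlap for any of the 3 genes, and cis SSP replicate 1 and cis SSP -SG replicate 2 were the low libraries of their groups for SLC7A11 and SLC1A4.

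With all 6 libraries, edgeR called none of the 10 transporters, where 0.0218% of all genes (3 of 13736) were called higher and 0% lower. Unadjusted p-values were under 0.05 for 6 transporters, and DESeq2 called 4. Leaving out either library alone still gave 0 calls with edgeR, whereas 1 edgeR fit over the 36 libraries called 8. Shares of all genes called are not given here for DESeq2 or for that fit. The log2 fold changes were 2.08 ± 0.426 for SLC7A11, 1.37 ± 0.172 for SLC1A4, 0.92 ± 0.145 for SLC7A5 and 0.91 ± 0.121 for SLC1A5. Without the pair of libraries, leaving 2 in each group, 9 transporters were called higher and none lower, against 18.9% and 17% of all genes. There SLC7A11 rose by 2.09 ± 0.0548, SLC1A4 by 1.36 ± 0.0418, SLC1A5 by 0.92 ± 0.0262, SLC7A5 by 0.90 ± 0.0266, SLC7A1 by 0.79 ± 0.0344, SLC6A9 by 0.75 ± 0.041 and SLC3A2 by 0.73 ± 0.0316. SLC38A4 was not called (0.05 ± 0.0811). The median over the family was 0.79 with all libraries and 0.77 without the pair, against -0.00 over all genes in both.

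The deprivation response of cis SSP was larger than that of cis for SLC1A5 with all libraries (0.87 ± 0.122; edgeR, adjusted p = 9.77e-04), the 1 call among the 10, against 17.1% of all genes. It held in each of the 12 fits without a library. Without the pair, 8 were called, against 55.4% of all genes. In that fit SLC7A11 (0.91 ± 0.0688) and SLC38A4 (0.96 ± 0.172) had a higher response in cis SSP, and SLC3A2 a lower one (-0.31 ± 0.0433).

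**Figure D4:**
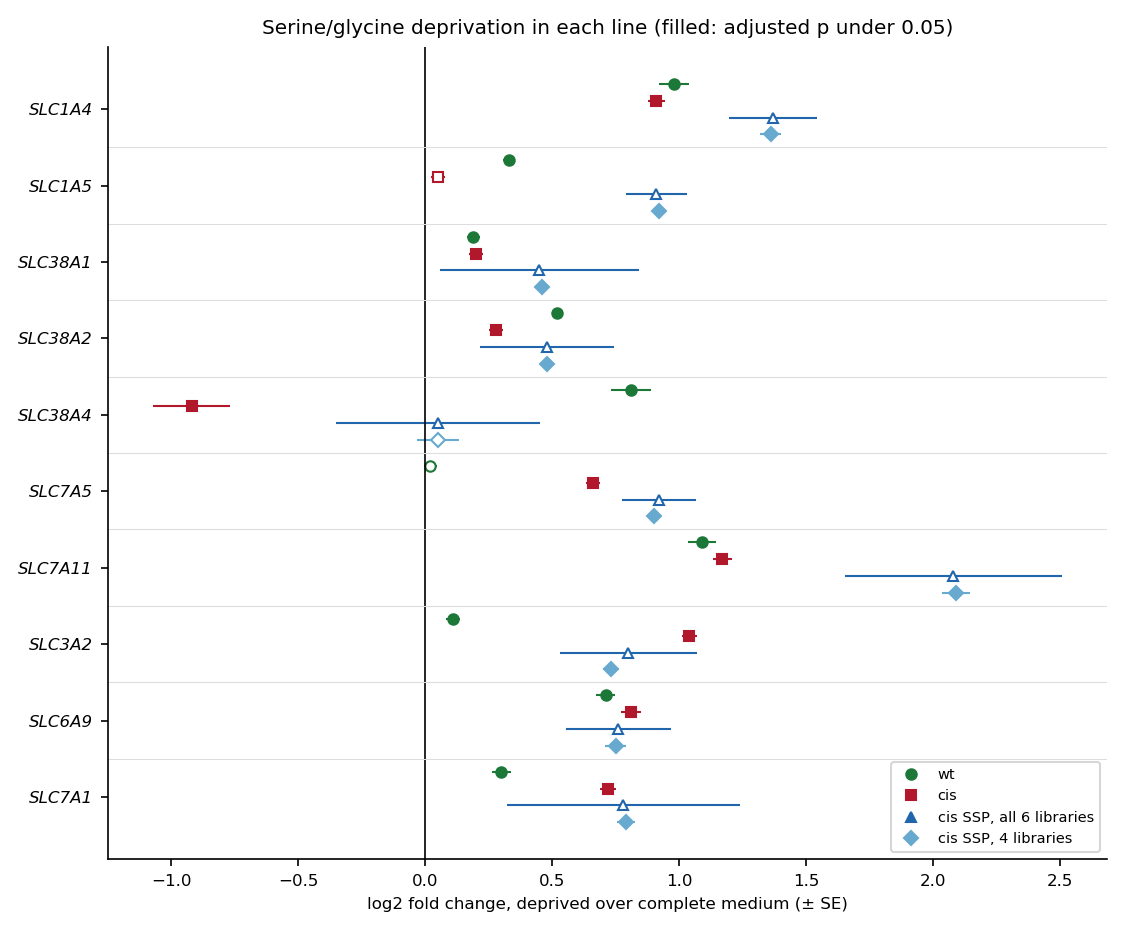
Log2 fold change (± SE) of each transporter on serine and glycine deprivation in wt, cis and cis SSP, the last with all 6 libraries and with the 4 left without cis SSP replicate 1 and cis SSP -SG replicate 2, filled at an adjusted p under 0.05. SLC1A4 and SLC7A11 lie near 1 in wt and cis, SLC7A5 and SLC3A2 at 0.02 and 0.11 in wt but 0.66 and 1.04 in cis, and SLC38A4 at 0.81 in wt but -0.92 in cis.

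Carboplatin in complete medium was compared with no carboplatin in each line. In wt cells, SLC6A9 was measured at 27, 26.9 and 25.5 CPM with carboplatin and at 57.8, 58 and 57.2 CPM without (log2 fold change -1.11 ± 0.0482). SLC7A11 was at 12.5, 12.6 and 13.6 CPM against 27.5, 27.1 and 27.9 CPM (-1.08 ± 0.0681). SLC1A5 was at 192, 195 and 183 CPM against 341, 343 and 341 CPM (-0.83 ± 0.0223). The treated libraries were all lower for these 3 genes, and SLC38A4 also fell (-0.79 ± 0.106).

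Smaller decreases in wt were those of SLC38A1 (-0.33 ± 0.0189), SLC7A5 (-0.15 ± 0.0187), SLC3A2 (-0.12 ± 0.0235) and SLC7A1 (-0.12 ± 0.0202). SLC1A4 went up, from 23.6, 25.5 and 26.3 CPM to 31.6, 29.8 and 29.1 CPM (0.28 ± 0.0567), and SLC38A2 by 0.07 ± 0.0183. In all 2 genes were called higher and 8 lower, against 38.9% and 39% of all genes. The median was -0.24, against -0.00 over all genes.

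In cis cells the differences with carboplatin were small for the transporters other than SLC38A4. SLC7A11 was measured at 77, 80.5 and 76.8 CPM with carboplatin and at 72.1, 71.9 and 69.4 CPM without, an increase of 0.16 ± 0.0407. SLC3A2 rose by 0.13 ± 0.0277, and SLC6A9 (-0.21 ± 0.0436) and SLC1A4 (-0.12 ± 0.0371) fell. The call of SLC1A4 was lost without cis replicate 1 or cis carbo replicate 3. SLC38A4 fell from 4.35, 5.57 and 6.15 CPM to 2.7, 3.32 and 2.56 CPM (-0.91 ± 0.161), a call that was lost in 1 edgeR fit over the 36 libraries. In all, 2 genes were called higher and 3 lower, against 9.27% and 10.8% of all genes, with a median of -0.04 (0.00 over all genes). SLC1A5, SLC38A1, SLC38A2, SLC7A5 and SLC7A1 had log2 fold changes between -0.06 and 0.04 and were not called.

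The carboplatin response differed between cis and wt for 8 of the 10 genes, against 57.6% of all genes. The response was higher in cis for SLC7A11 (1.25 ± 0.0756), SLC6A9 (0.90 ± 0.0634), SLC1A5 (0.80 ± 0.0338), SLC38A1 (0.29 ± 0.0308), SLC3A2 (0.26 ± 0.0365), SLC7A1 (0.14 ± 0.0374) and SLC7A5 (0.09 ± 0.0346). The call of SLC7A5 held in 7 of the 12 fits without a library. SLC1A4, which rose in wt and fell in cis, had a lower response in cis (-0.39 ± 0.0657). No difference was called for SLC38A2 or SLC38A4.

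In cis SSP cells in complete medium edgeR called no transporter with all libraries, where 1.97% of all genes were called higher and 0.749% lower. None had an unadjusted p under 0.05 and DESeq2 called none. SLC7A11 was measured at 26.9, 29 and 28.9 CPM with carboplatin against 13.4, 28.8 and 27 CPM without. Without cis SSP replicate 1, 4 genes were called, 2 higher and 2 lower, against 21.9% and 19.2% of all genes. These were SLC3A2 (0.26 ± 0.0302), SLC7A5 (0.18 ± 0.0256), SLC6A9 (-0.42 ± 0.0473) and SLC38A4 (-0.49 ± 0.084). SLC7A11 was then at 0.02 ± 0.0636.

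The difference between the carboplatin responses of cis SSP and cis was called for no transporter, against 0.506% of all genes. An unadjusted p under 0.05 was found for 1 of the 10 genes, and DESeq2 called none. Without cis SSP replicate 1 it was called for SLC7A5 (0.25 ± 0.0407), SLC3A2 (0.14 ± 0.0413) and SLC6A9 (-0.21 ± 0.0651), against 14.3% of all genes.

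Carboplatin was also given in medium lacking serine and glycine. In wt, each of the 10 transporters was called lower, against 34.3% of all genes called higher and 34.6% lower. The median was -0.65, against -0.01 over all genes. SLC7A11 was measured at 12.9, 9.06 and 11 CPM in wt -SG carbo against 56.7, 63.2 and 53.7 CPM in wt -SG (-2.37 ± 0.119). SLC6A9 was at 23.9, 23 and 24.8 CPM against 95.7, 93.4 and 90.9 CPM (-1.94 ± 0.0592). SLC38A4 (-1.52 ± 0.101) and SLC1A5 (-1.12 ± 0.0494) also fell by more than 1 on the log2 scale. Without wt -SG carbo replicate 2 each of the 10 was still called lower. The means of the treated libraries were 11 CPM in deprived and 12.9 CPM in complete medium for SLC7A11, and 23.9 and 26.4 CPM for SLC6A9.

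The carboplatin response of wt was lower in deprived than in complete medium for 8 of the 10 genes, against 27.7% of all genes called in either direction. The difference of responses was -1.30 ± 0.136 for SLC7A11, -0.95 ± 0.0917 for SLC1A4, -0.84 ± 0.069 for SLC6A9, -0.73 ± 0.151 for SLC38A4, -0.56 ± 0.0632 for SLC38A2 and -0.30 ± 0.0519 for SLC1A5. The others called were SLC7A1 (-0.35 ± 0.108) and SLC3A2 (-0.19 ± 0.0684). The SLC7A1 call was kept in 5 of the 12 fits without a library. The SLC3A2 call was kept in 1, the fit without wt -SG carbo replicate 2.

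In cis without serine and glycine, SLC7A11 was the 1 transporter that rose with carboplatin, from 160, 163 and 148 CPM to 178, 181 and 182 CPM (0.29 ± 0.0486), while 5 fell, against 10.9% and 11.6% of all genes. The 5 were SLC7A5 (-0.28 ± 0.0696), SLC3A2 (-0.15 ± 0.0415), SLC6A9 (-0.14 ± 0.0348), SLC1A5 (-0.13 ± 0.0402) and SLC38A2 (-0.10 ± 0.0256). Each of these 5 calls was lost without at least 1 library, and the count of transporters called was 1 without cis -SG replicate 2 or cis -SG carbo replicate 3 and 3 without cis -SG replicate 1 or 3. SLC1A5 was kept only without cis -SG carbo replicate 1, which at 442 CPM stood above the 355 and 376 CPM of the other 2. The share of reads on no annotated feature was at most 9.31% in the libraries other than cis -SG carbo replicates 2 and 3, of which the higher reached 17.9%.

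The carboplatin response of cis differed between media for 3 genes, against 12.1% of all genes. These were SLC38A4 (0.80 ± 0.249), SLC38A2 (-0.13 ± 0.0378) and SLC3A2 (-0.28 ± 0.0502). The SLC38A4 call was kept in 3 of the 12 fits without a library, and SLC38A2 in 10 of 12.

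In cis SSP without serine and glycine, SLC1A5 was the 1 transporter called with all libraries, at 392, 392 and 416 CPM with carboplatin against 592, 647 and 593 CPM without (-0.61 ± 0.098; edgeR, adjusted p = 0.0448). Its call was kept in 1 of 6 fits without a library. Over all genes 1.17% were called higher and 0.295% lower. SLC7A11 was at 55.8, 55 and 55.1 CPM against 123, 56.5 and 115 CPM.

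Without cis SSP -SG replicate 2, each of the 10 transporters was called lower, against 21.1% of all genes higher and 19.9% lower. Their median was -0.47. The largest of these were SLC7A11 (-1.09 ± 0.0435), SLC1A4 (-0.70 ± 0.0384), SLC6A9 (-0.66 ± 0.0381) and SLC1A5 (-0.55 ± 0.0262), and the smallest was SLC3A2 (-0.18 ± 0.0291). The response of cis SSP in deprived minus complete medium was called for none with all libraries by edgeR (4 with an unadjusted p under 0.05, 2 by DESeq2), against 0.0281% of all genes. Without the pair it was called for 9, all lower, against 15% of all genes, with SLC7A11 at -1.11 ± 0.0757, SLC1A4 at -0.69 ± 0.0618 and no call for SLC38A4 (0.04 ± 0.121).

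**Figure D5:**
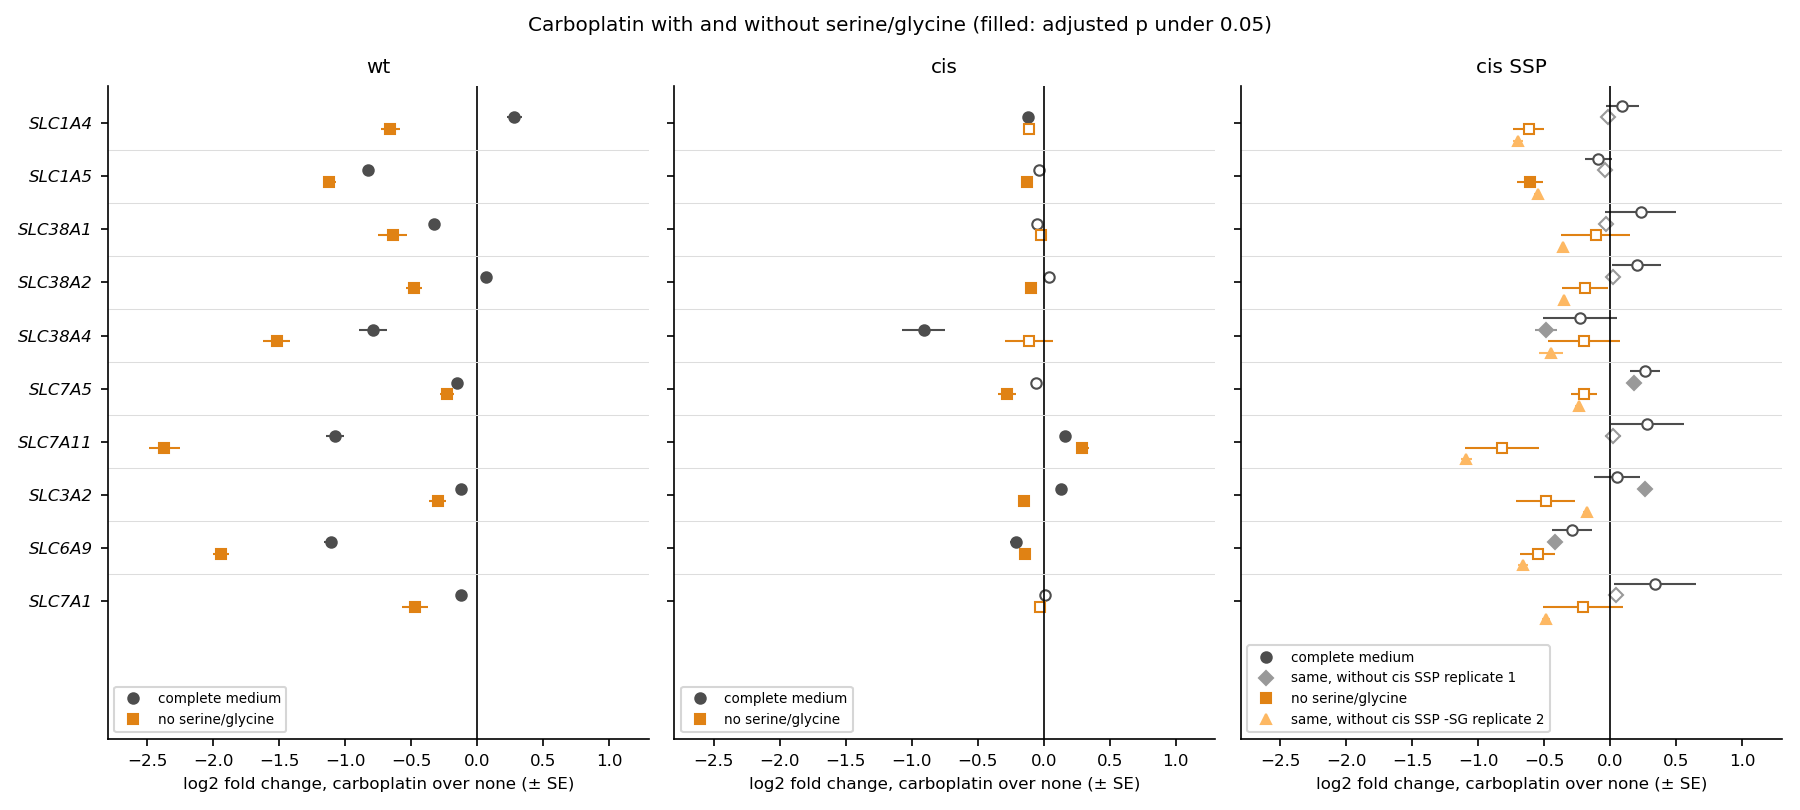
Log2 fold change (± SE) of each transporter with carboplatin over without, in complete and in deprived medium, in a panel for each line, filled at an adjusted p under 0.05. SLC7A11 and SLC6A9 lie at -1.08 and -1.11 in wt with serine and glycine and at -2.37 and -1.94 without, and at 0.16 and -0.21 in cis with them.

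Calls differed between fits on a comparison's own libraries and a fit over all 36. The latter changed the filter and the scaling as well as the spread, and the part of each was not tested. In 1 edgeR fit over the 36 libraries, which includes those that stand apart, carboplatin in complete medium was called for 6 transporters in wt and 0 in cis, and in deprived medium for 1 in cis, which was SLC7A5 and not SLC7A11. There the deprivation response differed between cis and wt for 4 and the carboplatin response for 4. The carboplatin response differed between media for 5 in wt and 0 in cis. Shares of all genes called are not given here for that fit, and the number of all genes called also moved in some of its comparisons. These counts therefore do not set the transporters apart from other genes.

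Each line and medium serves as the control of more than 1 comparison, so the responses given above are not independent of each other. The control libraries of wt enter its comparison with cis, its deprivation and its carboplatin response. The same holds for cis and for cis SSP.

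The genes around the transporters were read from lists chosen together with them. Of 25 ATF4 programme genes that are not transporters, 22 rose and 2 fell on deprivation in wt (median 0.36), where 24.1% of all genes were called higher and 25.1% lower. In cis 23 rose and none fell (0.88), against 37.6% and 37.4%. In cis SSP 2 rose with all libraries (0.97), against 0.0218%, and 24 without the pair, against 18.9%. Median values over all genes were 0.01, 0.01 and -0.00. ATF5, a transcription factor translated under amino acid stress, rose by 1.84 ± 0.0393 in wt and by 2.37 ± 0.032 in cis. ATF3, a stress-induced transcription factor, rose by 3.13 ± 0.0599 in cis, from 8.92 to 76.8 CPM. With carboplatin in wt, 6 of the 25 rose and 18 fell (median -0.59), against 38.9% and 39% of all genes, and in deprived wt 3 rose and 19 fell (-0.94), against 34.3% and 34.6%. PHGDH, the first enzyme of serine synthesis, fell from 473 to 176 CPM with carboplatin in wt (-1.41 ± 0.0215). In the same comparison ATF3 rose, from 21.6 to 76.1 CPM (1.84 ± 0.0473). Between cis and wt, 10 of the 25 were higher and 13 lower (-0.10), against 39.4% and 39.1% of all genes. CTH, which makes cysteine from cystathionine, was higher in cis by 2.34 ± 0.0733 and PHGDH lower by 1.66 ± 0.0265 on the log2 scale. NUPR1 of the same list was lower by 3.21 ± 0.077, at 5.13 CPM in cis and 46.4 CPM in wt.

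The deprivation response was higher in cis than in wt for 19 of the 25 and lower for 4, where 54% of all genes were called in either direction. The carboplatin response was higher in cis for 18 and lower for 5, against 57.6% in either direction. In cis -SG, where SLC7A11 rose with carboplatin, 1 of the 25 rose and 14 fell, against 10.9% and 11.6% of all genes.

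Other plasma membrane amino acid transporters did not follow one direction. Of 29 listed, 15 could be tested in wt and 11 in cis. On deprivation, 7 rose and 6 fell in wt (median 0.20), while 2 rose and 7 fell in cis (-0.30). The shares of all genes were 24.1% and 25.1% in wt and 37.6% and 37.4% in cis. SLC7A3, a cationic amino acid carrier like SLC7A1, rose by 1.69 ± 0.0947 in wt, from 5.4 to 17.2 CPM. SLC43A1, a facilitator of large neutral amino acids, rose by 0.73 ± 0.0509 in wt and by 0.74 ± 0.0436 in cis, while its relative SLC43A2 fell in both, by 0.46 ± 0.0693 and 0.55 ± 0.0561. SLC6A6, the taurine carrier, fell by 1.49 ± 0.0386 in cis. With carboplatin in wt, 4 rose and 9 fell (-0.40), against 38.9% and 39% of all genes, and SLC43A2 rose by 2.35 ± 0.0434, from 21.5 to 108 CPM. Between the lines, SLC7A2, another cationic carrier, was at 67.3 CPM in cis and 429 CPM in wt (-2.70 ± 0.0282).

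Among 14 tested intracellular amino acid transporters and carriers, 6 rose and 3 fell on deprivation in wt (median 0.07). On deprivation in cis 4 rose and 8 fell (-0.23), and with carboplatin in wt 8 rose and 5 fell (0.15). SFXN1, a mitochondrial serine carrier, fell by 0.92 ± 0.0329 on deprivation in cis. Among NRF2 and glutathione genes, of which 21 were tested, 9 rose and 6 fell on deprivation in wt (0.07), 13 rose and 7 fell in cis (0.26), and 13 rose and 5 fell with carboplatin in wt (0.40). For both lists the shares of all genes called higher and lower were 24.1% and 25.1%, 37.6% and 37.4%, and 38.9% and 39% in these comparisons. HMOX1, the haem-degrading enzyme, rose by 4.88 ± 0.0265 with carboplatin in wt, from 29.7 to 866 CPM, in the comparison in which SLC7A11 fell. In cis, HMOX1 rose by 0.75 ± 0.0431 with carboplatin, and by 2.81 ± 0.035 on deprivation. TKT (-1.25 ± 0.0339) and PGD (-1.12 ± 0.03) of the same list fell on deprivation in cis. Between cis and wt, 10 of these 21 genes were higher and 9 lower (median 0.05), against 39.4% and 39.1% of all genes. OSGIN1 was higher in cis by 4.10 ± 0.143. ME1 was at 0 CPM in cis and 25.5 CPM in wt, and FTH1 was also lower in cis (-1.13 ± 0.0868).

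The genes whose pattern over the 12 condition means was most like each transporter were found by Pearson's r of log2(CPM + 1), as a description over 12 points that share lines and libraries. For SLC7A11 they were TRIB3 (r = 0.963), C11orf54 (0.96) and RSL24D1 (0.959). For SLC1A5 they were MTHFD2 (0.975), GPT2 (0.972) and POLR2M (0.963), and for SLC1A4 HSPA13 (0.968), CCPG1 (0.964) and ZBTB8A (0.963). For SLC3A2 they were XBP1 (0.963), CHAC1 (0.951) and ZNF674 (0.945), and CHAC1 (0.858) also followed BNIP2 (0.871) and EPRS1 (0.859) for SLC7A5. The nearest gene was VPS35 for SLC38A1 (0.986), MAU2 for SLC38A2 (0.887), ABL1 for SLC38A4 (0.96), MSL2 for SLC6A9 (0.969) and CACNA1B for SLC7A1 (0.96).

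Without the pair of libraries, MTHFD2 and GPT2 stayed among the 3 nearest genes of SLC1A5, and HSPA13 of SLC1A4. None stayed for SLC7A11, whose nearest became HERPUD1 (0.971), SLC39A14 (0.964) and ULBP1 (0.962), nor for SLC38A4 or SLC3A2. CACNA1B left the 3 nearest genes of SLC7A1, whose nearest became N4BP2L2 (0.945). EPRS1 and CHAC1 left those of SLC7A5. Among the transporters themselves, SLC7A11 was closest to SLC38A1 (0.91) and SLC1A4 (0.90), and SLC3A2 to SLC7A5 (0.85) and SLC7A11 (0.84). SLC38A4 and SLC7A11 were at -0.35. Without the pair, SLC7A11 was closest to SLC1A4 (0.91), SLC1A5 (0.88) and SLC38A1 (0.87), SLC3A2 stood at 0.81 with both SLC7A5 and SLC7A11, and SLC38A4 and SLC7A11 were at -0.29.

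Some counts could hold reads of overlapping genes, since no source used here states whether counting kept strand. Exons of SLC6A9 overlap those of CCDC24 on the opposite strand (43634 and 2774 counts over the 36 libraries). SLC7A11 overlaps SLC7A11-AS1 (42225 and 1096 counts). The counts of the SLC7A5 pseudogene SLC7A5P1 were 0.0713% of those of SLC7A5.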

How the data were processed

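RNA from 36 libraries in 12 conditions of 3 was made with a SENSE total RNA kit and sequenced single-end. The authors aligned reads with STAR to GRCh37.p13 and counted them over GENCODE 19 exons with HTSeq, and deposited raw read counts per gene. Strand setting and treatment of multi-mapped reads are not given in the sources used here. Not all overlaps of the transporters with other genes are reported here. The 3 rows that name no gene were left out of totals and tests (reads on no feature came to 4.21% to 17.9%), and 55538 of 57820 identifiers had a symbol. Mean chi-square per gene between 2 libraries of a condition ran from 1.18 to 111 over 36 pairs, where counting noise alone gives about 1. The lowest was that of wt -SG carbo replicates 1 and 3 (1.18), and the wt carbo pairs lay at 1.33 to 1.6. No threshold was set, and each library was kept as a separate one.

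Conditions were compared in 13 pairs and 7 differences of responses with edgeR 4.0.16 (quasi-likelihood F-test, TMM scaling, filterByExpr) in R 4.3.3, each on its own libraries, with Benjamini-Hochberg adjustment over all genes tested and calls at an adjusted p under 0.05. SE is the absolute log2 fold change over the square root of F. The procedure was tested on simulated data. Alternatives were DESeq2 1.42.0, DESeq2 size factors, total counts, no filter, a minimum of 10 counts, an absolute log2 fold change of 1, 1 fit over 36 libraries, and each library left out. Shares of all genes, lists, spans and like genes without the libraries that stand apart were added after seeing the data. Named list genes were at most 3 called genes per list with the largest change, a mean of at least 10 CPM in 1 group and no overlap between groups. Like genes had a mean of at least 5 CPM. The members and lists were chosen with earlier results of these data known. Depth limits the precision of SLC38A4 most, and intervals cover the spread between libraries only.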

Additional observations from a re-analysis of the deposited data

Results flagged for a closer look

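The responses of 2 lines, or of 1 line in 2 media, differed by edgeR's test of the difference itself at an adjusted p under 0.05 for 27 transporter values, each a difference of log2 fold changes. For the deprivation response of cis minus that of wt, they were SLC3A2 (0.95), SLC7A5 (0.66), SLC7A1 (0.43), SLC6A9 (0.12), SLC38A2 (-0.22), SLC1A5 (-0.26) and SLC38A4 (-1.71), the last of which rose in wt and fell in cis. For the deprivation response of cis SSP minus that of cis, it was SLC1A5 (0.87).

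For the carboplatin response of cis minus that of wt in complete medium, they were SLC7A11 (1.25), SLC6A9 (0.90), SLC1A5 (0.80), SLC38A1 (0.29), SLC3A2 (0.26), SLC7A1 (0.14), SLC7A5 (0.09) and SLC1A4 (-0.39). For the carboplatin response of wt in deprived minus complete medium, they were SLC7A11 (-1.30), SLC1A4 (-0.95), SLC6A9 (-0.84), SLC38A4 (-0.73), SLC38A2 (-0.56), SLC7A1 (-0.35), SLC1A5 (-0.30) and SLC3A2 (-0.19). The same difference in cis was called for SLC38A4 (0.80), SLC38A2 (-0.13) and SLC3A2 (-0.28). The shares of all genes called in these 5 tests stand beside their counts in the text above, and comparisons share control libraries. Groups of 3 libraries are too small for a test of a single outlying library.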

How the results depend on the processing

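No paired analysis was possible because the labels number the libraries without a replicate number shared between conditions. Of 200 values tested 102 were called, and of their 2850 values under alternatives 2540 kept sign and side of the threshold, 142 lost the call, 109 gained it and 59 changed sign, 0 of these where the value had been called and 2 where the alternative called it. The cause of a change was not tested unless the alternative itself shows it.

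Counts of transporters called moved as follows. The number of all genes called also moved in some alternatives. Its shares are given, in the text above, only for fits without the libraries that stand apart. Where calls also had to reach 1 on the log2 scale in either direction, which can only remove them, 2 were left in cis vs wt, cis SSP vs cis, cis -SG vs cis and wt carbo vs wt, 4 in wt -SG carbo vs wt -SG, 3 in cis -SG vs wt -SG, 1 in wt -SG vs wt, cis SSP -SG vs cis -SG, the deprivation and carboplatin responses of cis minus wt and the carboplatin response of wt between media, and 0 in the comparisons of cis carbo, cis -SG carbo and cis SSP -SG carbo with their controls, the deprivation response of cis SSP minus cis and the carboplatin response of cis between media. Over all 13458 to 15418 genes tested, it left 3549, 1797, 2210, 2802, 3204 and 4615 in that order, up to cis -SG vs wt -SG. From wt -SG vs wt on it left 260, 3073, 1805, 2174 and 371. From cis carbo on it left 45, 228, 103, 1319 and 69. In 1 fit over 36 libraries the counts were 8 in cis SSP -SG vs cis SSP, 6 in wt carbo, 0 in cis carbo, 2 in cis SSP carbo, 1 in cis -SG carbo, 6 in cis SSP -SG carbo, 7 in cis SSP -SG vs cis -SG, 4 and 5 for the deprivation responses of cis minus wt and cis SSP minus cis, 4 for the carboplatin response of cis minus wt, and 5, 0 and 4 for carboplatin between media in wt, cis and cis SSP. DESeq2 called 4 in cis SSP -SG vs cis SSP, 3 in cis SSP -SG carbo, 2 for the deprivation response of cis SSP minus cis and 2 for carboplatin between media in cis SSP. With no filter on low counts 0 were called in cis SSP -SG carbo. Without both cis SSP replicate 1 and cis SSP -SG replicate 2 the counts were 9 in cis SSP -SG vs cis SSP, 8 for the deprivation response of cis SSP minus cis and 9 for carboplatin between media in cis SSP.

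With 1 library left out the counts ran from 2 to 9 in cis SSP vs cis, 0 to 4 in cis SSP carbo, 1 to 7 in cis -SG carbo, 0 to 10 in cis SSP -SG carbo, 1 to 9 in cis SSP -SG vs cis -SG, 1 to 4 for the deprivation response of cis SSP minus cis, 0 to 3 for the carboplatin response of cis SSP minus cis and 1 to 6 for carboplatin between media in cis. The highest counts came without cis SSP replicate 1 or cis SSP -SG replicate 2 where these entered, and without cis -SG carbo replicate 1 in cis -SG carbo (7) and in the last (6). The lowest were without any 1 cis library in cis SSP vs cis (2), any 1 cis -SG library in cis SSP -SG vs cis -SG (1), cis -SG replicate 2 or cis -SG carbo replicate 3 in cis -SG carbo (1), and cis replicate 2 or cis carbo replicate 1 in the last (1).

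Signs changed near 0. Log2 fold changes with total counts in place of the trimmed mean were -0.02 for SLC38A4 in cis SSP -SG vs cis SSP, -0.00268 for SLC3A2 in cis SSP carbo, 0.01 for SLC38A1 and 0.00219 for SLC7A1 in cis -SG carbo, -0.03 for SLC7A1 in the deprivation response of cis SSP minus cis and 0.02 for SLC38A2 in the carboplatin response of cis minus wt. With no filter they were -0.00376 for SLC7A1 in cis carbo and -3.89e-04 for SLC38A1 in the deprivation response of cis minus wt. In 1 fit they were -0.01 for SLC1A5 in cis -SG vs cis, -0.05 for SLC38A1 in the deprivation response of cis minus wt and 0.00138 for SLC6A9 in that of cis SSP minus cis. With 1 library left out the ranges that crossed 0 were, for SLC7A5 in wt -SG vs wt, -0.00118 to 0.05; SLC38A4 in cis SSP -SG vs cis SSP, -0.22 to 0.32; SLC7A1 in cis carbo, -0.02 to 0.04; in cis SSP carbo SLC1A4 -0.02 to 0.15, SLC38A1 -0.03 to 0.38 and SLC3A2 -0.05 to 0.26; SLC38A1 in cis SSP -SG carbo, -0.36 to 0.04, and in cis SSP -SG vs cis -SG, -0.22 to 0.19. For the deprivation response they were SLC38A1 of cis minus wt, -0.01 to 0.06, and of cis SSP minus cis SLC6A9, -0.17 to 0.08, and SLC7A1, -0.21 to 0.37. For the carboplatin response of cis SSP minus cis they were SLC1A5 -0.07 to 0.01, SLC38A2 -0.01 to 0.28, SLC7A11 -0.14 to 0.31, SLC3A2 -0.17 to 0.14 and SLC6A9 -0.21 to 0.03. Between media they were SLC1A4 -0.08 to 0.03, SLC38A1 -0.05 to 0.04 and SLC6A9 -5.02e-04 to 0.09 in cis, and SLC38A4 -0.22 to 0.31 in cis SSP.

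Total counts moved the median of all genes by -0.11 in the deprivation response of cis SSP minus cis and the share of calls that were higher from 40.1% to 28.6% there, from 48.4% to 61.1% in cis -SG carbo, from 72.4% to 60.3% in cis SSP carbo, from 83.6% to 73.3% in the carboplatin response of cis SSP minus cis and from 48.9% to 62.5% for carboplatin between media in cis.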
